A study of Homo sapiens with 11 samples.

Results

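The mature products of the miR-144, miR-451a and miR-486 hairpins were followed through 11 small RNA libraries of differentiating SH-SY5Y cells. The 5 miRNAs, hsa-miR-144-3p, hsa-miR-144-5p, hsa-miR-451a, hsa-miR-486-5p and hsa-miR-486-3p, were taken by name from the 2576 mature miRNAs of the count tables. They were selected with their measured responses to hydrogen peroxide (H2O2) already known, so their differences between H2O2 and control are given below as a description, without p-values.

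miR-144 and miR-451a are cut from one transcript, and the erythroid transcription factor GATA1 drives that transcript in developing red blood cells. miR-451a is unusual in that its hairpin is matured by the slicer AGO2 and not by Dicer. miR-486 lies within the gene of the membrane skeleton protein ankyrin 1 (ANK1) and is known from red blood cells and muscle, and miR-144 is known to repress NRF2 (gene NFE2L2), the transcription factor of the antioxidant response.

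SH-SY5Y is a neuroblastoma line, a subline of the bone marrow-derived SK-N-SH, and it was grown here in medium with foetal bovine serum. All 4 groups received 10 µM all-trans retinoic acid (ATRA) for 7 days, which turns the cells neuron-like. In co-treatment, 10 µM H2O2 was given together with ATRA for those 7 days (3 libraries, against 3 controls without H2O2). In pre-treatment, 10 µM H2O2 was given for 72 h and withdrawn before ATRA was begun (3 libraries, against 2 controls without H2O2). The study describes biological triplicates from which 1 outlier was removed and does not say more about how far the cultures were separate. Epithelial-like cells persist in this line, and it is a single tumour-derived line.

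RefSeq (GRCh38.p14) held the mature sequence of 2 of the 5 miRNAs, the arms of the miR-144 hairpin. They are shown with the seed, bases 2 to 8 from the 5′ end, in capitals, since the seed sets which transcripts a miRNA can pair with. hsa-miR-101-3p is shown with them because it shares bases 2 to 7 (its capitals) with hsa-miR-144-3p. No other miRNA of the RefSeq table shared bases 2 to 8 with either arm of miR-144.
hsa-miR-144-3p: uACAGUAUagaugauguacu
hsa-miR-101-3p: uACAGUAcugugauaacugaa
hsa-miR-144-5p: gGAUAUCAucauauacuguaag

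The 3′ UTR of the NFE2L2 transcript chosen as canonical in the annotation is 477 bases long and held 2 matches to ATACTGT, the complement of the miR-144-3p seed. The first (bases 265 to 271 of the UTR, GRCh37 chr2:178095242-178095248, minus strand) and the second (bases 370 to 376, chr2:178095137-178095143, minus strand, followed by an A) are shown with their flanks, the match in capitals.
first match: aaaacttatttATACTGTtcttatgtcat
second match: cttttttataaATACTGTatggacaaaaa

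The same 7 letters stood at least once in 13.97% of 19053 canonical 3′ UTRs and in 3.02% of the 1755 UTRs whose length was within 20% of that of NFE2L2. Of those 1755, 5 held 2 or more matches. A match describes the letters only, and NFE2L2 mRNA was not analysed here.

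On GRCh37, the miR-144 hairpin matched chr17:27188551-27188636 on the minus strand, with miR-144-3p at 27188566 to 27188585 and miR-144-5p at 27188601 to 27188622. It lies inside an exon of the long non-coding RNA gene ENSG00000264066 (chr17:27188011-27189009), as does the miR-4732 hairpin at 27188673 to 27188748. In RefSeq gene order MIR451A and MIR451B stand on one side of MIR144 and MIR4732 on the other, between the protein-coding genes ERAL1 and FLOT2. MIR451A and MIR451B overlap each other, and how the counting treated reads of the overlap is not given in the sources used here.

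Libraries held 5343953 to 8927582 counts (median 7425640), and 3 counts, taken as the detection floor, corresponded to 0.331 to 0.502 CPM (counts scaled to a common library total). CPM values are scaled with the trimmed mean of M values (TMM) over the 11 libraries, and intervals and floors cover counting error only. H2O2 was compared with control by edgeR's exact test over all miRNAs that passed a low-count filter (790 in co-treatment, 868 in pre-treatment). A miRNA was called at a Benjamini-Hochberg adjusted p (FDR) under 0.05 with a log2 fold change (log2FC) of more than 0.6 in size, and standard errors (SE) are from edgeR's quasi-likelihood fit. Between libraries of one group the correlation of log2(CPM + 0.5) over the tested miRNAs was 0.941 for the pre-treatment controls and 0.980 to 0.993 in the other groups, given as a description. The pre-treatment controls differed from each other. Control 1 held 540 counts of miR-223-3p against 4 in control 2, and 1007 of miR-205-5p against 32. Control 2 held 11931 counts of miR-210-3p against 5297 in control 1, and 37792 of miR-375 against 19808. Which of the controls deviates cannot be told from 2 libraries. For the lists no fit without control 2 is given, and pre-treatment fold changes are also given without control 1. Leaving control 1 out moved the background: the median log2FC of all tested miRNAs was 0.07 in place of -0.19.

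All 5 miRNAs were scarce. Of the 5, miR-144-5p, miR-451a and miR-486-5p passed the filter in both experiments, and miR-144-3p and miR-486-3p passed in neither. In co-treatment, miR-486-5p passed only through its H2O2 libraries. In pre-treatment, miR-144-5p also needed its H2O2 libraries to pass, since control 2 reached the threshold and control 1 did not. By count, miR-451a ranked between 428 and 813 and miR-144-5p between 418 and 1074 among the 2576 miRNAs of a library. In bulk RNA of this kind, fewer cells that express a miRNA and less of it per cell cannot be told apart.

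**Figure D1:**
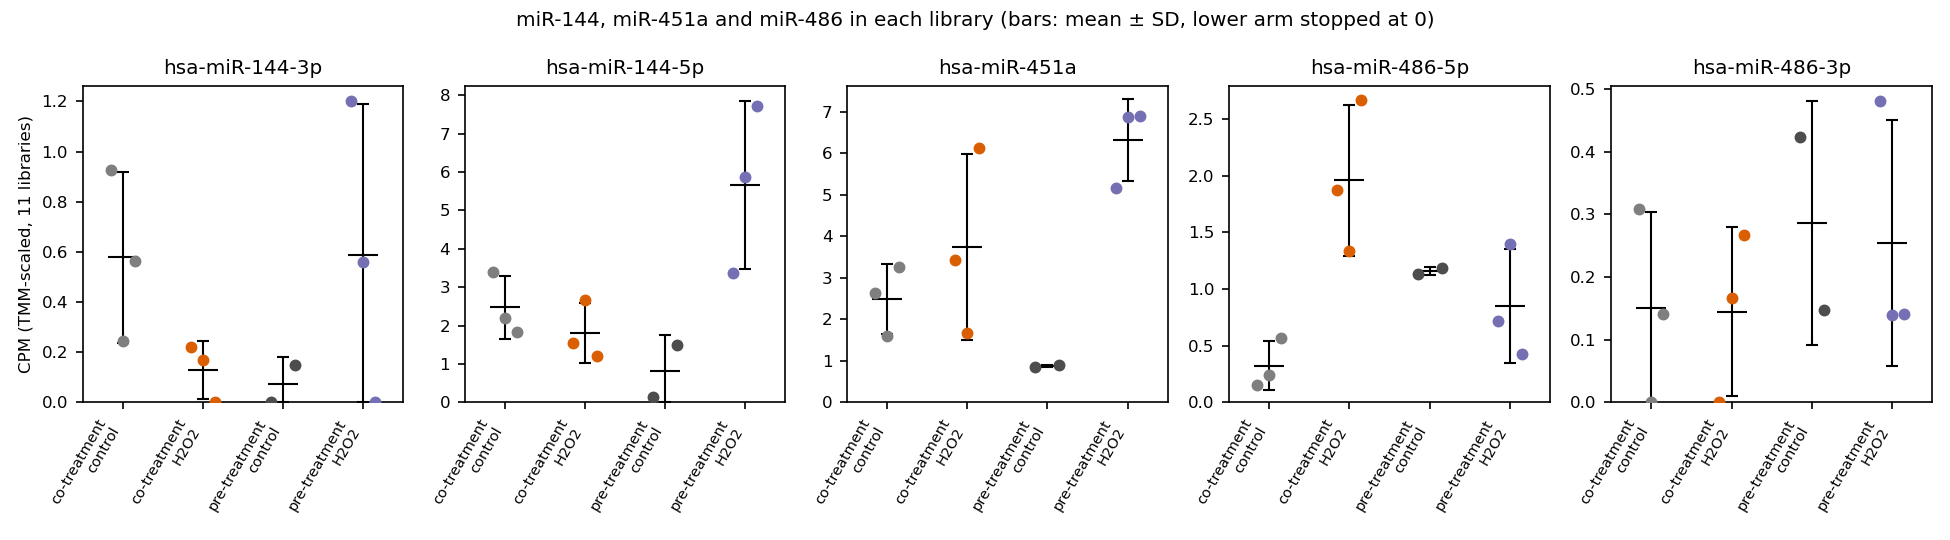
CPM of each of the 5 miRNAs (vertical axes, 1 scale per panel) in every library (points) of the 4 groups, with the group mean and SD (n = 3, or 2 for pre-treatment controls). For miR-451a the 3 pre-treatment H2O2 libraries lie between 5.17 and 6.89 CPM and their 2 controls at 0.848 and 0.889, while for miR-486-5p it is the co-treatment groups that separate.

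miR-451a, the AGO2-matured product of the cluster, was read 6 times in each of the pre-treatment controls and 43, 49 and 49 times in the pre-treatment H2O2 libraries. Every H2O2 library lay above both controls. The mean level was 0.868 ± 0.0288 CPM (SD, n = 2) in the controls and 6.31 ± 0.987 CPM (SD, n = 3) after H2O2, a log2FC of 2.79 (SE 0.44). The ratio of the pooled levels was 7.20, with an exact 95% counting interval of 3.997 to 14.3. Without control 1 the log2FC was 2.82.

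In co-treatment miR-451a had 17, 13 and 23 counts in the controls and 31, 10 and 46 counts in the H2O2 libraries. The groups overlapped, since H2O2 library 2, at 1.67 CPM, lay within the range of the controls, 1.59 to 3.25 CPM. Means were 2.48 ± 0.839 CPM (SD, n = 3) and 3.74 ± 2.24 CPM (SD, n = 3), with a log2FC of 0.59 (SE 0.47) that was not called and came to 0.10 without H2O2 library 3. In the order of its 4 group means miR-451a was highest in pre-treatment H2O2, then in co-treatment H2O2, co-treatment controls and pre-treatment controls. The only neighbours that did not overlap were the last pair, the control groups of the experiments. Experiment and any batch that goes with it cannot be told apart there.

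miR-144-5p, the arm opposite the one with the NFE2L2 seed match, was read 1 time in pre-treatment control 1 and 10 times in control 2. After H2O2 it was read 28, 42 and 55 times. The controls differed from each other 10-fold in counts, and all 3 H2O2 libraries were above both. Means were 0.811 ± 0.947 CPM (SD, n = 2) and 5.66 ± 2.19 CPM (SD, n = 3), with a log2FC of 2.71 (SE 0.84). The pooled ratio was 6.97 (exact 95% counting interval 3.76 to 14.3). The log2FC was 1.93 without control 1 and 5.38 without control 2, which leaves control 1 with its single count, and the call was lost when any 1 of the H2O2 libraries was left out (2.45 to 3.03).

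In co-treatment the counts of miR-144-5p were 22, 18 and 13 without H2O2 and 14, 16 and 9 with it, with overlap between the groups. Means were 2.47 ± 0.814 CPM and 1.81 ± 0.772 CPM (SD, n = 3 each), and the log2FC of -0.50 (SE 0.49) was not called. Its group means followed the order pre-treatment H2O2, co-treatment controls, co-treatment H2O2 and pre-treatment controls, and each pair of neighbours in that order overlapped. The control groups, which are not neighbours in it, did not overlap. They lay at 1.84 to 3.39 CPM in co-treatment and 0.141 to 1.48 CPM in pre-treatment. Experiment and any batch that goes with it cannot be told apart there.

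miR-144-3p, the arm whose seed matches the NFE2L2 sites shown above, was at or near the floor. It had 6, 2 and 4 counts in co-treatment controls and 2, 1 and 0 counts with H2O2. It had 0 and 1 counts in pre-treatment controls and 10, 4 and 0 counts after H2O2. The pooled ratio was 0.253 in co-treatment (3 counts against 12, exact 95% counting interval 0.0457 to 0.936) and 8.58 in pre-treatment (14 counts against 1, interval 1.31 to 363). In pre-treatment 10 of the 14 counts came from H2O2 library 1 and the third H2O2 library had none, so the groups overlapped. In co-treatment the CPM values did not overlap, but control 2 and H2O2 library 1 both had 2 counts and differed only in depth.

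The 5p arm made up most of the miR-144 counts in each group, although the 3p arm is the one with the NFE2L2 seed match. Pooled, it was 81.5% of 65 counts in co-treatment controls (exact 95% interval 70.0% to 90.1%) and 92.9% of 42 counts with H2O2 (80.5% to 98.5%). In pre-treatment it was 91.7% of 12 counts in controls (61.5% to 99.8%) and 89.9% of 139 counts after H2O2 (83.7% to 94.4%). Single libraries ranged from 73.7% to 100%. The mean share was 12.2 percentage points higher with H2O2 in co-treatment, where libraries of the groups overlapped, and differed by -7.13 points in pre-treatment. Without control 1, which held a single miR-144 count, the pre-treatment control share was 90.9% of 11 counts.

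As a share of miR-451a and miR-144-5p counts together, a ratio chosen after the values were seen, miR-451a took 41.9% to 63.9% in co-treatment controls and 38.5% to 83.6% with H2O2. In pre-treatment it took 37.5% and 85.7% in the controls and 47.1% to 60.6% after H2O2. The groups overlapped in both experiments.

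miR-486-5p, the ANK1-hosted miRNA, had 1, 2 and 4 counts in the co-treatment controls and 17, 8 and 20 counts in the H2O2 libraries. Each H2O2 library lay above each control. Means were 0.321 ± 0.216 CPM and 1.96 ± 0.667 CPM (SD, n = 3 each), with a log2FC of 2.53 (SE 0.68). The pooled ratio was 6.50 (exact 95% counting interval 2.91 to 17.1), and the control side rests on 7 counts in all.

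In pre-treatment miR-486-5p was read 8 times in each control and 6, 10 and 3 times after H2O2. The control values lay within the range of the H2O2 libraries. Means were 1.16 ± 0.0384 CPM (SD, n = 2) and 0.848 ± 0.502 CPM (SD, n = 3), with a log2FC of -0.48 (SE 0.73) that was not called and a pooled ratio of 0.728 (0.355 to 1.51). Without control 1 the log2FC was -0.46. The order of its group means was co-treatment H2O2, pre-treatment controls, pre-treatment H2O2 and co-treatment controls. The first pair of neighbours did not overlap and the others did. Beyond neighbours, the highest pre-treatment H2O2 library (1.40 CPM) lay above the lowest co-treatment H2O2 library (1.34 CPM). The control groups did not overlap, at 0.154 to 0.565 CPM in co-treatment and 1.13 to 1.18 CPM in pre-treatment. Experiment and any batch that goes with it cannot be told apart there.

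miR-486-3p, its partner arm, had 2, 0 and 1 counts in co-treatment controls, 0, 1 and 2 with H2O2, 3 and 1 in pre-treatment controls, and 4, 1 and 1 after H2O2. A difference was not detectable at this depth: the pooled ratios were 1.01 (exact 95% counting interval 0.135 to 7.54) and 0.920 (0.218 to 4.43). The 5p share of miR-486 was 70.0% of 10 counts in co-treatment controls and 93.8% of 48 with H2O2, and 80.0% of 20 and 76.0% of 25 in pre-treatment. Pre-treatment control 2 alone had 88.9% of 9 counts.

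In co-treatment 1 of the 3 tested miRNAs, miR-486-5p, was called, and it was raised. Over all 790 miRNAs tested there, 26.2% were called and 10.6% were called and raised. In pre-treatment miR-451a and miR-144-5p were called and raised, 2 of 3 tested, where 15.3% of all 868 were called and 5.41% were called and raised. H2O2 and control libraries did not overlap for 1 of the 3 in co-treatment and 2 of the 3 in pre-treatment, against 41.6% and 46.0% of all tested miRNAs. Since the 5 miRNAs were selected on these contrasts, nothing is read from the counts of calls. miR-451a and miR-144-5p were called in pre-treatment and miR-486-5p in co-treatment, and whether the response differs between experiments was not tested.

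**Figure D2:**
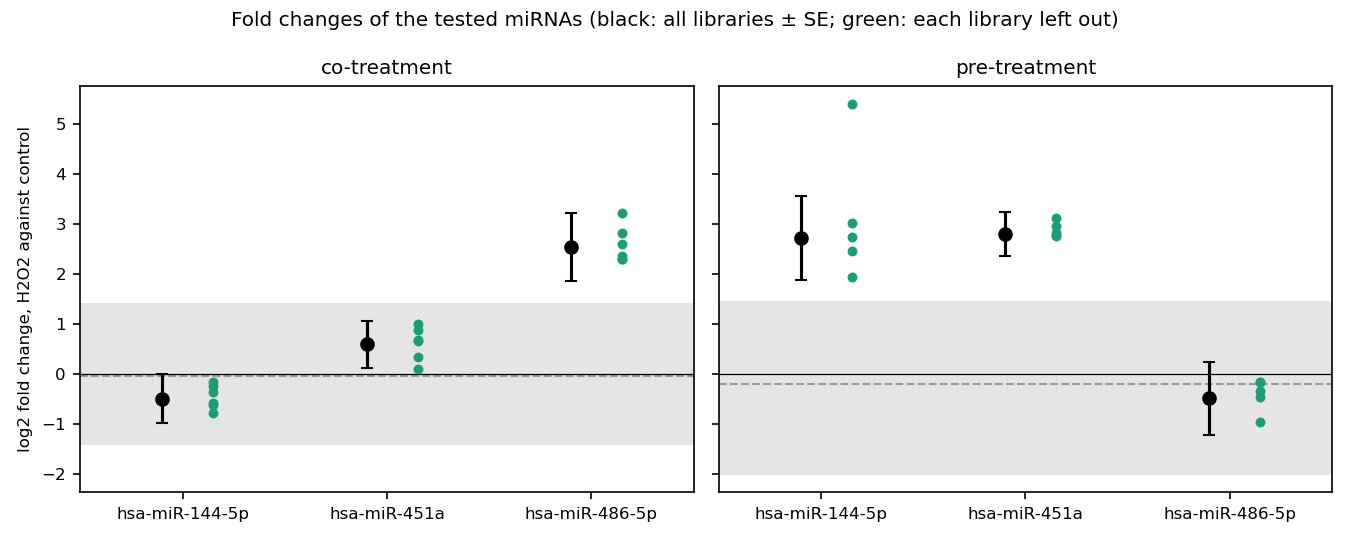
log2FC of H2O2 against control (vertical axis) for the 3 tested miRNAs in co-treatment (left) and pre-treatment (right). Black points are the values with all libraries ± SE, green points leave out 1 library each, the grey band spans the 5th to 95th percentile of all tested miRNAs (-1.40 to 1.39 in co-treatment and -1.999 to 1.44 in pre-treatment) and the dashed line is their median. miR-486-5p lies above the band on the left, and miR-451a and miR-144-5p lie above it on the right.

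The remaining annotated miRNAs of the locus, miR-4732-5p, miR-4732-3p and miR-451b, had 0 counts in all 11 libraries. Zero counts allow up to 3 counts per library, or 0.331 to 0.502 CPM. For miR-451b this leaves aside how reads of its overlap with MIR451A were counted.

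In a list of 10 further miRNAs that are abundant in red blood cells, 8 were tested. In co-treatment 0 of the 8 rose and 1 fell. The 1 was miR-15a-5p, a partner of miR-16 in restraining the cell cycle, which went from 3227 ± 235 to 1435 ± 215 CPM (SD, n = 3 each), with a log2FC of -1.19 and an FDR of 3.30e-04 by edgeR's exact test. In pre-treatment 2 rose and 1 fell: miR-16-5p from 331 ± 15.6 to 709 ± 43.3 CPM (log2FC 1.06, FDR 0.0291), miR-15a-5p (log2FC 1.05, FDR 0.0261) and the hypoxia-responsive miR-210-3p (log2FC -1.75, FDR 0.00492). The list's median log2FC was -0.06 in co-treatment and 0.24 in pre-treatment, against -0.04 and -0.19 over all tested miRNAs. The summed level of the list was 65984 to 97530 CPM in co-treatment controls, 73389 to 82762 with H2O2, 56726 to 93300 in pre-treatment controls and 65190 to 79126 after H2O2, with overlap throughout, but miR-25-3p alone made up 88.6% to 92.8% of it. Without miR-25-3p the sum was 7084 to 8216 CPM in co-treatment controls and 5943 to 6550 with H2O2, and 5863 to 6769 in pre-treatment controls and 7442 to 7935 after H2O2. Both miR-4732 arms of the list were at 0. Without pre-treatment control 1, which leaves a lone control assumed to vary like the H2O2 libraries, 3 of the 8 rose and 1 fell, with a median of 0.05, to be read against the higher background of that fit (31.5% called, 15.7% raised, median 0.07). With edgeR's quasi-likelihood test none of the pre-treatment calls named here or in the lists below passed (FDR 0.0541 for miR-192-5p to 0.0819 for miR-223-3p).

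Of 6 miRNAs known to decline as red cells mature, 4 were tested in co-treatment, where 1 rose and 0 fell. That was miR-221-3p, which represses the receptor KIT in erythroid precursors, from 0.670 ± 0.368 to 5.21 ± 1.72 CPM (log2FC 2.94, FDR 7.31e-06). In pre-treatment 5 were tested, 0 rose and 1, miR-223-3p, fell (log2FC -4.87, FDR 0.0107), with the 540 counts of control 1 on the control side. Without control 1 its log2FC was 1.12 and not called (FDR 0.405), and 2 of the 5 rose where 15.7% of all tested did. The medians were 1.12 and 0.61, against the medians over all tested miRNAs given above.

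Other blood and tissue lists were read beside these values. The white blood cell list of 8 had 6 tested and summed to 8171 to 10863 CPM in co-treatment controls, 11361 to 15158 with H2O2, 6025 to 23035 in pre-treatment controls and 8391 to 9058 after H2O2. None of its 6 rose in either experiment, and 1 fell in each: miR-142-5p in co-treatment (log2FC -1.30, FDR 0.0145) and miR-223-3p in pre-treatment. Without pre-treatment control 1, 1 of the 6 rose and 0 fell. The sum was 99.4% to 99.8% miR-342-3p, which was not called in co-treatment (log2FC 0.47, FDR 0.180, groups overlapping). Without miR-342-3p the list summed to 27.9 to 35.6 CPM in co-treatment controls and 20.9 to 32.5 with H2O2, which overlapped. In pre-treatment that sum was 32.4 to 127 CPM in controls and 38.7 to 41.8 after H2O2, which also overlapped.

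The liver list of 4 had 3 tested, and none was called in co-treatment. In pre-treatment 2 of 3 rose, where 5.41% of all tested miRNAs were called and raised. The list's median log2FC there was 1.21, against -0.19 over all tested miRNAs. miR-122-5p, the miRNA that dominates hepatocytes, went from 175 ± 110 (n = 2) to 680 ± 144 CPM (n = 3; log2FC 1.88, FDR 0.0116), and miR-192-5p from 385 ± 26.8 to 917 ± 33.4 CPM (log2FC 1.21, FDR 0.0135). The list summed to 487 to 698 CPM in pre-treatment controls and 1540 to 1824 CPM after H2O2, and to 770 to 1217 and 742 to 968 CPM in co-treatment. Without control 1, 2 of 3 rose, miR-122-5p with a log2FC of 1.44. The list was thus higher after H2O2 in pre-treatment, as miR-451a and miR-144-5p were, and a link between them was not tested. It was not alone in this. Medians of other lists also lay above that of all tested miRNAs in pre-treatment, from 0.24 (red blood cell list) to 1.22 (the muscle list given below). The white blood cell list lay below it, at -0.67. The pre-treatment controls themselves were uneven, with 689 counts of miR-122-5p in control 1 and 1712 in control 2.

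The pattern over the 11 libraries was compared with that of 761 other miRNAs tested in both experiments, as the root mean square difference of log2(CPM + 0.5) centred per miRNA, so that smaller is more alike. For miR-451a the nearest were miR-122-5p (0.378), miR-335-3p (0.483) and miR-584-5p (0.485), against a median of 1.04. miR-122-5p had 1529, 1135 and 2147 counts in co-treatment controls, 3004, 1228 and 4069 with H2O2, and 4589, 4661 and 5938 after H2O2 in pre-treatment. Like miR-451a, it was low in co-treatment H2O2 library 2 and high in library 3. miR-144-5p, from the same transcript, stood at 0.763, with 76 of the 761 nearer to miR-451a. It had only 1 to 55 counts per library, and counting error at such counts adds to this distance and was not taken out. All of these share library and depth, so the likeness is a description.

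For miR-486-5p the nearest were miR-6761-5p (0.388), miR-6514-5p (0.410) and miR-4804-5p (0.432), against a median of 0.879. miR-6761-5p had 10 to 20 counts in co-treatment controls and 23 to 39 with H2O2. miR-144-5p stood at 1.35 from miR-486-5p with 731 of 761 nearer, and miR-451a at 1.04 with 553 nearer.

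**Figure D3:**
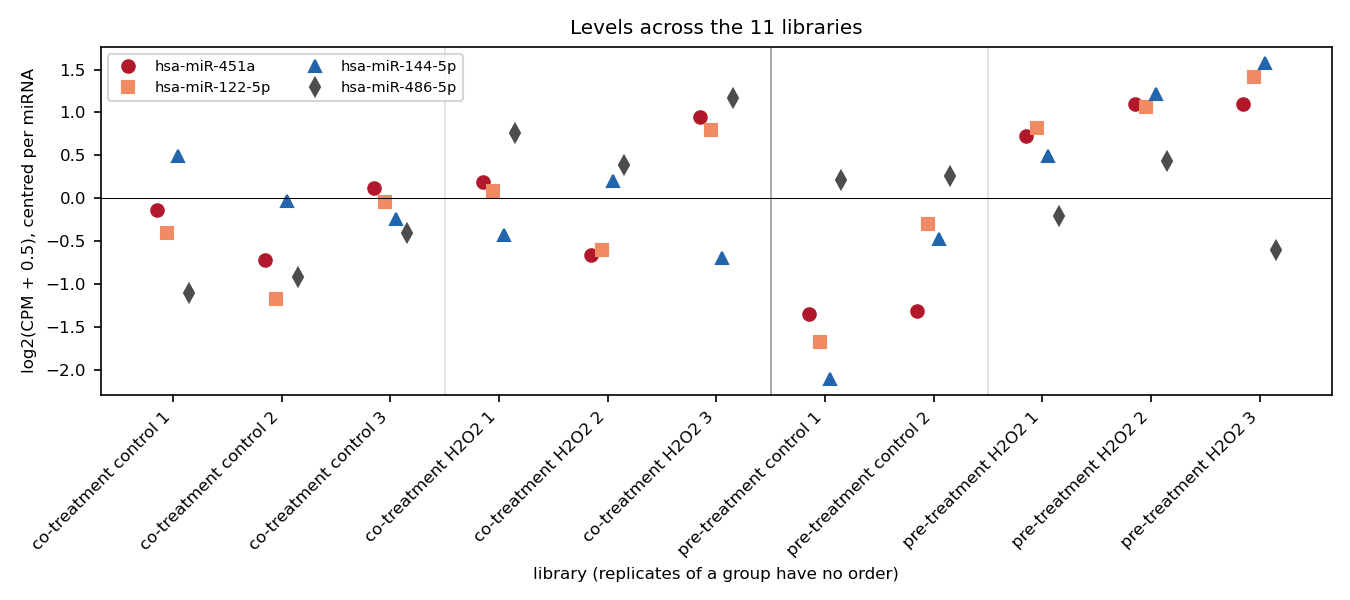
Level of miR-451a, miR-122-5p, miR-144-5p and miR-486-5p in each of the 11 libraries (horizontal axis), as log2(CPM + 0.5) centred per miRNA (vertical axis). Grey lines separate the groups. miR-451a and miR-122-5p lie closest together overall (root mean square difference 0.378) and farthest apart in pre-treatment control 2, while miR-486-5p runs apart from miR-144-5p (1.35).

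The seed relative miR-101-3p, which shares bases 2 to 7 with miR-144-3p, was far more abundant, with 653 to 2961 counts per library. It fell in co-treatment (log2FC -0.96, SE 0.29, FDR 0.00987) and rose in pre-treatment (log2FC 1.41, SE 0.36, FDR 0.0194, edgeR's exact test; FDR 0.0656 with the quasi-likelihood test). Without control 1 its pre-treatment log2FC was 1.198. The pooled ratios of miR-144-3p lay on the same sides of 1, with the few counts given above.

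The antioxidant list held 12 miRNAs described to target NRF2 or its inhibitor KEAP1, miR-144 left out, and 9 were tested. In co-treatment 0 rose and 3 fell: miR-142-5p, already given, miR-340-5p from 2708 ± 692 to 1284 ± 246 CPM (SD, n = 3 each; log2FC -1.10, FDR 0.00180) and miR-27b-3p (log2FC -0.78, FDR 0.0222), all of the NRF2 side. In pre-treatment 1 rose, miR-340-5p from 1594 ± 466 (SD, n = 2) to 3465 ± 397 CPM (SD, n = 3; log2FC 1.06, FDR 0.0443), and 0 fell. Without control 1, 4 of the 9 rose and 0 fell, where 15.7% of all tested miRNAs were raised, and the list's median was 0.70 against 0.07. The list's medians were -0.75 and 0.56, against -0.04 and -0.19 over all tested miRNAs. The 3 KEAP1 miRNAs, miR-7-5p, miR-141-3p and miR-200a-3p, were not called in either experiment with all libraries, and miR-141-3p rose in pre-treatment without control 1.

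The miR-486 hairpin lies on GRCh37 at chr8:41517959-41518026 on the plus strand, inside an intron of ANK1 (41510739 to 41754259, minus strand). RefSeq lists MIR486-1 and MIR486-2 at overlapping positions. How the counting treated reads there is not given in the sources used here, so the miR-486 counts are uncertain in that respect.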

How the data were processed

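Small RNA of SH-SY5Y cells was sequenced by the authors with the QIAseq miRNA kit. The authors trimmed reads with Cutadapt (2.10; quality threshold 28), aligned them to hg19 with Bowtie2 (2.4.1), counted each mature miRNA with HTSeq (0.7.2) and deposited raw counts, not normalized. The versions are from the submitters' processing notes, which also name FastQC 0.11.8 and edgeR 3.6.1. The miRNA annotation release, the strand setting and the use of molecular identifiers are not given in the sources used here, so counts were treated as reads. Deposited tables of the authors' own log2 fold changes, logCPM, p-values and FDR were not used.

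Samples were grouped by their labels. Within each experiment, treated and control libraries were tested against each other by edgeR's exact test (edgeR 4.0.16, R 4.3.3; TMM scaling, Benjamini-Hochberg adjustment over all tested miRNAs, FDR under 0.05, absolute log2FC above 0.6). The low-count filter, set at the CPM of 5 counts in the shallowest library, was 0.936 for co-treatment (passed in 3 or more libraries) and 0.721 for pre-treatment (2 or more). The planned exact permutation test of arm shares cannot reach 0.05 with these groups and its p-values are not given. Intervals, arm shares and likeness were computed with scipy 1.17.1, with a pseudocount of 0.5 CPM for likeness. Alternatives were edgeR's quasi-likelihood test, DESeq2 1.42.0, other scalings and filters, no minimum log2FC, a replicate block, one fit of 11 libraries, and each library left out; for the lists, the quasi-likelihood test and the fit without pre-treatment control 1 were added after seeing the data. The tests were tested on simulated data.

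The 5 miRNAs, the lists and the alternatives were chosen with earlier results of these data known. Named beside the 5 were list members called in either experiment (at most 4 per list and experiment), the 3 miRNAs nearest to miR-451a and to miR-486-5p, and seed relatives; miRNAs outside this rule were named after their values were seen. The tables' older names hsa-miR-1 and hsa-miR-203a were taken for hsa-miR-1-3p and hsa-miR-203a-3p. Of the promoters of the 4 loci, 0 were matched in the reference table, so no motif search was run. Groups of 2 and 3 libraries limit all p-values to the spread between these libraries.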

Additional observations from a re-analysis of the deposited data

How the results depend on the processing

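Over 78 alternatives for the log2FC of the 3 tested miRNAs, 78 kept the direction. Of the 77 that gave a call either way, 72 kept the side of the threshold. The alternatives refit the same counts, and fits whose filter removed a miRNA gave no value for it and are not among the 78. miR-451a in pre-treatment was called in each of its 13 alternatives, and with 1 library left out its log2FC was 2.75 to 3.11. miR-144-5p in pre-treatment (2.71) lost its call with the quasi-likelihood test (2.72) and with any 1 H2O2 library left out, and ranged from 1.93 to 5.38 over the libraries left out. The ranges were 2.29 to 3.21 for miR-486-5p, 0.10 to 0.99 for miR-451a and -0.79 to -0.16 for miR-144-5p in co-treatment, and -0.96 to -0.16 for miR-486-5p in pre-treatment.

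With a replicate block the pre-treatment log2FC of miR-144-5p was 2.75 and not called, which left 1 of the 3 called, and calls over all miRNAs came to 111 in co-treatment and 15 in pre-treatment. Same-numbered libraries deviated together with correlations of 0.04, -0.17 and -0.18 in co-treatment and 0.24 and -0.04 in pre-treatment. The deviations of the pre-treatment controls mirror each other, so their values are not separate. With so few libraries, these correlations cannot decide whether the numbers pair the libraries.

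In pre-treatment 1 of the 3 was called with the quasi-likelihood test, 1 with a filter on every library, which removed miR-144-5p, and 1 to 2 with a library left out. In co-treatment the filter on every library removed miR-486-5p and left 0 called, the count stayed at 1 to 1 with a library left out, and DESeq2 gave miR-486-5p no adjusted p. Over all miRNAs, 207 calls in co-treatment became 84 in one fit of 11 libraries and 107 to 274 with a library left out. The 133 of pre-treatment became 17 with the quasi-likelihood test, 61 with no filter and 9 to 508 with a library left out. The share of co-treatment calls that were raised was 40.6%, 50.5% with library size scaling and 56.9% with the filter on every library. The cause of these shifts was not tested. Depth limits miR-144-3p and miR-486-3p, at 0 to 10 and 0 to 4 counts per library.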

Other observations

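The neuronal and neuroendocrine list of 9 miRNAs, which bears on the labelled cell type, had 8 tested. In co-treatment 0 rose and 3 fell (edgeR's exact test, Benjamini-Hochberg adjusted): miR-137, a brain-enriched regulator of neuronal maturation, from 31192 ± 1500 to 14819 ± 1867 CPM (SD, n = 3 each; log2FC -1.10, FDR 5.89e-04), miR-218-5p (log2FC -0.99, FDR 0.00803) and miR-9-5p (log2FC -1.06, FDR 0.0493, and 0.0651 with edgeR's quasi-likelihood test, which does not pass). In pre-treatment miR-138-5p rose (log2FC 1.03, FDR 0.0362) and miR-375 fell (log2FC -1.32, FDR 0.0168). Without pre-treatment control 1, 9 were tested, 2 rose (miR-9-3p and miR-138-5p) and 1 fell, where 15.7% of all tested miRNAs were raised. The summed list was 35180 to 37479 CPM in co-treatment controls and 18808 to 22531 with H2O2, and 15498 to 28320 in pre-treatment controls and 32266 to 40039 after H2O2. miR-137 made up 70.5% to 87.1% of that sum and was not called in pre-treatment (log2FC 0.88, FDR 0.150). Without miR-137 the list summed to 4959 to 5701 CPM in co-treatment controls and 4994 to 5558 with H2O2, and to 4572 to 7858 and 4870 to 5176 CPM in pre-treatment. miR-124-3p, a defining miRNA of mature neurons, had 0 to 7 counts per library.

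Of a list of 7 muscle miRNAs, read because miR-486 is also known from muscle, 3 were tested in co-treatment and 4 in pre-treatment. In each experiment 1 was called, where 26.2% and 15.3% of all tested miRNAs were. The list's medians were -0.55 and 1.22, against -0.04 and -0.19 over all tested miRNAs. miR-133a-3p and miR-208a-3p had 0 counts in every library, and miR-133b had at most 1. miR-499a-5p, encoded in a myosin gene, fell in co-treatment from 37.5 ± 3.24 to 17.7 ± 2.70 CPM (SD, n = 3 each; log2FC -1.10, FDR 0.00157). miR-1 rose in pre-treatment from 0.939 ± 0.0711 (n = 2) to 3.27 ± 0.287 CPM (n = 3; log2FC 1.74, FDR 0.0259; 1.88 without control 1). The epithelial list had 7 of 7 tested, with 0 called in co-treatment and 1 lowered in pre-treatment, miR-205-5p (log2FC -4.54, FDR 0.00271), of which control 1 held 1007 counts. Without control 1 the log2FC of miR-205-5p was -0.58 and not called (FDR 0.416), and 2 of the 7 rose, again against 15.7% of all tested. None of the pre-treatment calls named here passed with edgeR's quasi-likelihood test (FDR 0.0645 to 0.0728).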
